A study of Arabidopsis thaliana with 9 samples.

Results

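Probe sets of 4 plant enzyme gene families were followed in Arabidopsis thaliana seedlings mutant for a Mediator subunit gene and in wild type: cytochrome P450s (symbols CYP and a digit), beta-glucosidases (BGLU), serine carboxypeptidase-like proteins (SCPL) and aldehyde dehydrogenases (ALDH). Members were all probe sets with exactly 1 gene in the platform annotation whose symbol began with one of these prefixes, chosen by name and with no filter on dim signals. This gave 39 probe sets for 39 genes among the 16826 probe sets other than controls, or among the 9335 with exactly 1 gene. By prefix there were 14 CYP, 13 BGLU, 4 SCPL and 8 ALDH probe sets. The CYP prefix also took in CYP59 and CYP71, which the RefSeq gene table calls cyclophilins, protein-folding enzymes unrelated to P450s, so that 12 P450 genes were left, 11 of them of the CYP71B subfamily. They stand for a small part of these families, and many well-known P450s of hormone and glucosinolate synthesis were not analysed here. The families were chosen with earlier results of these data known. The shares called below therefore describe them and are not an independent test.

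The arrays held RNA from the above-ground parts of seedlings of 3 genotypes, all in the Col-0 background: cct-1 at 9 days, gct-2 at 9 days, and wild-type Col-0 (WT) at 7 days. CCT and GCT encode MED12 and MED13, which sit together in the CDK8 module, which binds reversibly to Mediator, the coactivator between DNA-bound regulators and RNA polymerase II. There were 3 biological replicates per genotype, with 75 to 100 seedlings pooled in each, grown in soil at 23 °C under 16 h of light, picked in rotation among the 9 tubes and kept only if they had formed cotyledons and leaf primordia. Harvest was set by leaf primordia of 1 mm, so that a difference between a mutant and WT cannot be told apart from 2 days of age. In whole shoots, fewer cells of a type and less RNA per cell cannot be told apart either.

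P450s are haem enzymes that insert oxygen into small molecules, and plants use their many copies to build hormones, pigments, cuticle lipids and defence compounds. The CYP71B subfamily is expanded in Arabidopsis and lies partly in rows of neighbouring genes. Beta-glucosidases of glycoside hydrolase family 1 cut glucose from stored conjugates and so release monolignols, hormones or toxins. SCPL proteins are either peptidases or acyltransferases that work on glucose esters, and aldehyde dehydrogenases oxidise reactive aldehydes to acids in stress tolerance and central metabolism.

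The median log2 signal of an array ranged from 7.7 to 7.76, and the number of arrays limits the precision. A member is called dim on an array where its signal lay under the 40th percentile of that array, about 6.86 on the log2 scale. By this measure 22 of the 39 members were above the line on all 9 arrays, 5 on some and 12 on none, and 27 passed a filter that asks for 3 arrays above it. Signals under the line were not shown to be above background, so the size of a change between dim values is uncertain. Of 8 leaf and shoot marker genes, 4 had a named probe set (RCA, LHCB4.2, PSAN and PSAE-1), with log2 signals of 12.52 to 13.46 on every array, while none of 6 root and none of 8 seed markers had a named probe set. LHCB4.2 averaged 12.57 in cct-1, 13.09 in gct-2 and 12.80 in WT and was the 1 of these 4 that was called (higher in gct-2 than in WT, and lower in cct-1 than in gct-2). The part of such leaf markers in the results below was not tested.

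Tests are limma's moderated test in 1 fit of all 9 arrays, with Benjamini-Hochberg adjustment over all 16826 probe sets, and a change is called at an adjusted p under 0.05. The 2 comparisons with WT use the same 3 WT arrays, so their values stand side by side below and are not independent. Changes are log2 differences between genotype means with their standard error (SE).

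**Figure D1:**
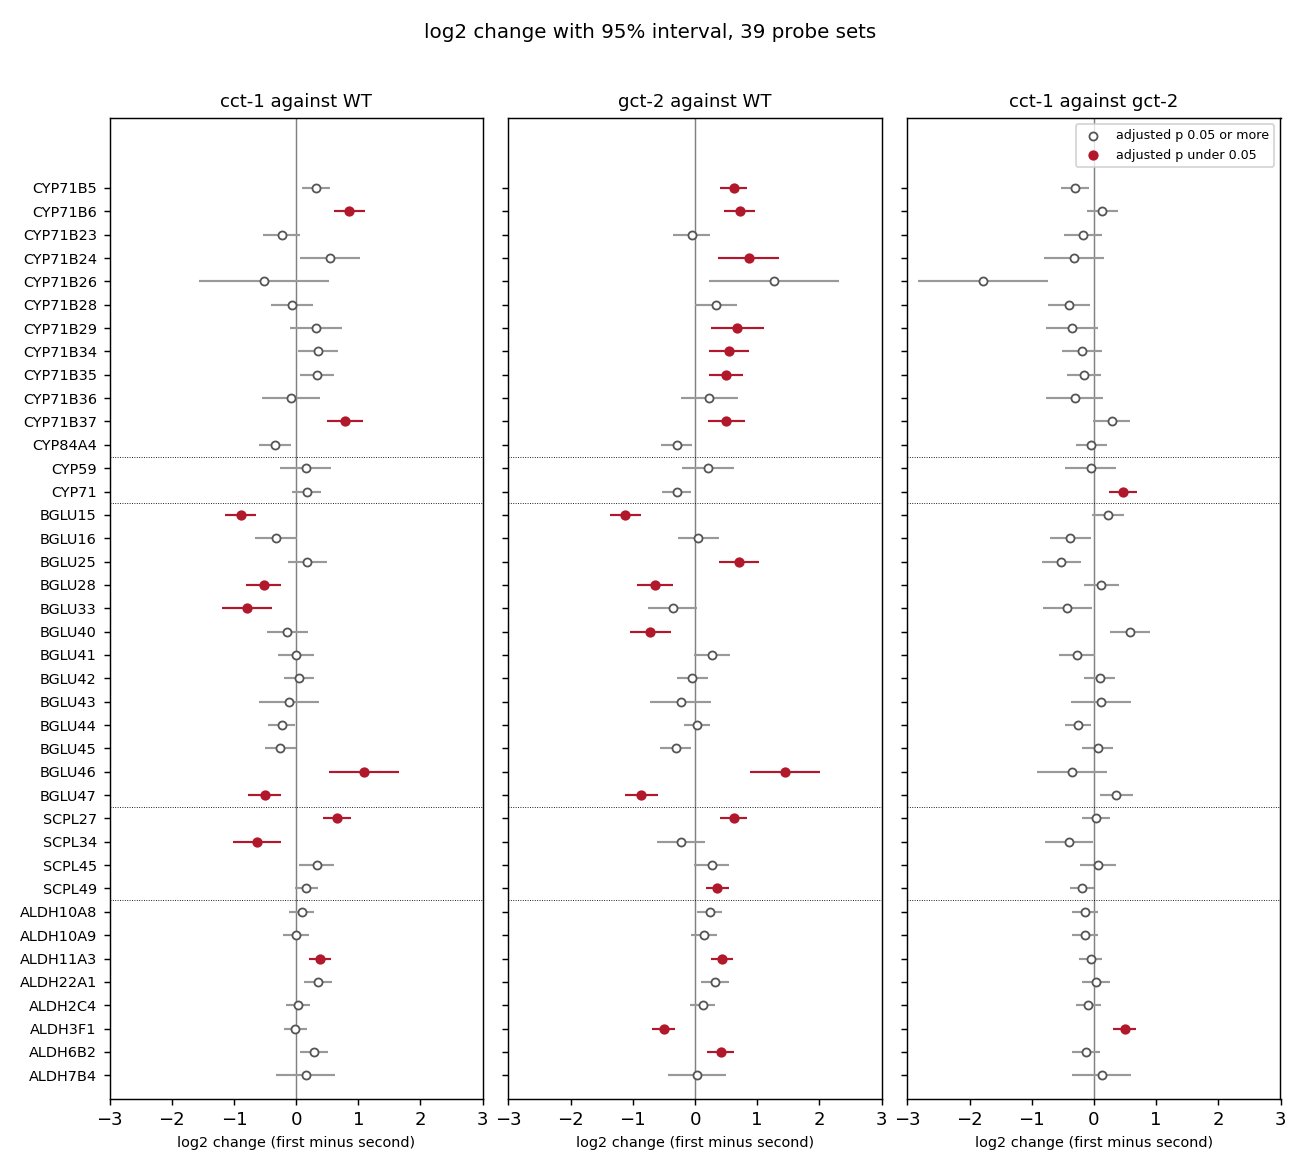
log2 change (horizontal axis) of each of the 39 members (rows) in cct-1 against WT, gct-2 against WT and cct-1 against gct-2, with 95% intervals as bars. Filled points mark an adjusted p under 0.05, dotted lines part the P450s, the 2 cyclophilins, BGLU, SCPL and ALDH. In gct-2 against WT the 7 filled P450 points all lie right of 0, and 4 of the 6 filled BGLU points lie left of it.

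In gct-2 the P450 genes lay mostly above WT, with log2 changes above 0 for 10 of 12 and below 0 for 2, while in cct-1 the split was 7 above and 5 below. In gct-2, 7 of the 12 P450s were called higher and 0 lower, all 7 of them CYP71B genes, with measured increases of 1.42-fold to 1.82-fold. In cct-1, 2 of 12 were called higher (CYP71B6 and CYP71B37) and 0 lower. Over all probe sets 7.53% were called higher and 8.16% lower in gct-2, and 5.5% higher and 6.25% lower in cct-1, while 15.7% and 11.7% were called in either direction. The median log2 change of the 12 P450s was 0.53 in gct-2 and 0.32 in cct-1, beside -0.01 and 0.02 over all probe sets. After the filter on dim signals 15.3% of probe sets were called in gct-2 and 12.9% in cct-1. Of the 5 P450s that passed it, 3 remained called in gct-2 (CYP71B5, CYP71B6 and CYP71B34) and 1 in cct-1 (CYP71B6). The calls removed were of CYP71B24, CYP71B29, CYP71B35 and CYP71B37, which were dim on all 9 arrays and so were not tested after the filter. With 1 array left out, the P450s called in gct-2 against WT numbered 2 without WT replicate 2. Dropping replicate 1 of gct-2 left 3, dropping its replicate 2 left 4, and dropping its replicate 3 gave 4, with CYP84A4 called lower among them.

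CYP71B6 (AT2G24180), whose product converts indole-3-acetonitrile towards indole-3-carboxylic acid, had log2 signals of 10.32, 10.18 and 10.02 in cct-1, of 10.06, 9.98 and 10.10 in gct-2, and of 9.25, 9.23 and 9.50 in WT. Every mutant array lay above every WT array, and the mutants overlapped. It rose 1.8-fold in cct-1 (log2 change 0.85, SE 0.11, limma adjusted p = 0.00214) and 1.65-fold in gct-2 (0.72, SE 0.11, adjusted p = 0.00345). Both calls stood in all 16 alternative fits. Expression of CYP71B5 (AT3G53280), a P450 with no role given here, was 9.46, 9.47 and 9.31 in cct-1, 9.79, 9.58 and 9.78 in gct-2, and 9.20, 9.01 and 9.07 in WT on the log2 scale. The 3 genotypes did not overlap, with gct-2 on top and WT at the bottom. CYP71B5 rose in gct-2 (log2 change 0.62, SE 0.10, adjusted p = 0.00396), whereas its change in cct-1 was 0.32 (adjusted p = 0.0691) and the difference between the mutants was -0.30 (95% interval -0.52 to -0.08, adjusted p = 0.124).

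A row of CYP71B genes on chromosome 3, in which CYP71B26, CYP71B34, CYP71B35, CYP71B36 and CYP71B37 follow each other with no other protein-coding gene between them in the RefSeq table, held 3 of the calls in gct-2. CYP71B34 (AT3G26300) had log2 signals of 7.66, 8.00 and 7.73 in cct-1, of 7.92, 7.89 and 8.16 in gct-2, and of 7.68, 7.22 and 7.43 in WT. All gct-2 arrays lay above the WT arrays, while cct-1 overlapped WT. The gene rose in gct-2 (log2 change 0.55, SE 0.14, adjusted p = 0.0342), beside 0.35 in cct-1 (adjusted p = 0.151). Its call was lost with the replicate number as a block (adjusted p = 0.0729), in a fit of the 2 genotypes alone (0.0505) and without WT replicate 2 or 3 or any 1 of the gct-2 arrays (adjusted p up to 0.113).

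CYP71B35 (AT3G26310) was dim throughout, at 5.98, 6.36 and 6.41 in cct-1, at 6.42, 6.40 and 6.41 in gct-2, and at 5.94, 5.79 and 5.99 in WT. The gct-2 arrays were nearly equal and lay above all WT arrays, and cct-1 replicate 1 lay within the WT range. CYP71B35 rose in gct-2 (log2 change 0.50, SE 0.12, adjusted p = 0.025) and had a change of 0.34 in cct-1 (adjusted p = 0.104, or 0.0253 without cct-1 replicate 1). Its gct-2 call was lost without WT replicate 1 or 2 or any 1 of the gct-2 arrays (adjusted p up to 0.0888). CYP71B37 (AT3G26330), also dim on all arrays, measured 4.43, 4.58 and 4.16 in cct-1, 4.27, 3.98 and 4.08 in gct-2, and 3.65, 3.48 and 3.69 in WT. No mutant array overlapped WT. It rose in cct-1 (log2 change 0.79, SE 0.13, adjusted p = 0.00593) and in gct-2 (0.50, SE 0.13, adjusted p = 0.0299), the second call being lost with the replicate number as a block (0.0559) and without WT replicate 1 or 2 or gct-2 replicate 1 or 3 (up to 0.104).

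CYP71B26 (AT3G26290), at the head of this row, had the widest spread of the family and no call. Its log2 signals were 6.93, 7.30 and 6.10 in cct-1, 9.19, 8.42 and 8.09 in gct-2, and 8.24, 7.01 and 6.63 in WT. WT replicate 1 lay above the other WT arrays and within the gct-2 range, while gct-2 and cct-1 did not overlap. The log2 change was 1.27 in gct-2 against WT (SE 0.46, adjusted p = 0.0958) and -0.51 in cct-1 (adjusted p = 0.514). Between the mutants it was -1.79, or 3.45-fold lower in cct-1 as measured (95% interval -2.83 to -0.74, adjusted p = 0.0641). Without WT replicate 1 the adjusted p was 0.0257 for gct-2 against WT and 0.0352 for cct-1 against gct-2, and with the replicate number as a block 0.0272 and 0.0293. CYP71B36, the other member of the row, was dim and overlapped in all 3 comparisons (2.69 to 3.47 on all arrays).

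CYP71B24 (AT3G26230), which lies near this row with CYP71B23, was dim at 3.35, 3.14 and 3.49 in cct-1, at 3.33, 3.44 and 4.16 in gct-2, and at 2.55, 2.90 and 2.90 in WT. Both mutants lay wholly above WT, and gct-2 replicate 3 was the highest array. CYP71B24 rose in gct-2 (log2 change 0.86, SE 0.21, adjusted p = 0.0269), a call lost without WT replicate 1 (0.0772) or WT replicate 2 (0.0602) and in a fit of the 2 genotypes alone (0.0547). In cct-1 its change was 0.54 (adjusted p = 0.135, or 0.0446 without gct-2 replicate 3). CYP71B23 was the dimmest of the P450s, with signals of 1.94 to 2.38 and no call.

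The neighbours CYP71B28 (AT1G13090) and CYP71B29 (AT1G13100) on chromosome 1 were measured at different brightness. CYP71B29 was dim, at 5.27, 4.89 and 5.43 in cct-1, at 5.43, 5.43 and 5.81 in gct-2, and at 5.19, 4.71 and 4.72 in WT. The gct-2 arrays were above all WT arrays, and cct-1 overlapped both other genotypes. CYP71B29 rose in gct-2 (log2 change 0.68, SE 0.19, adjusted p = 0.0389), a call lost without WT replicate 2 or 3, cct-1 replicate 1 or any 1 of the gct-2 arrays (adjusted p up to 0.126). CYP71B28 measured 7.80, 7.93 and 7.35 in cct-1, 8.06, 8.17 and 8.04 in gct-2, and 7.77, 7.61 and 7.90 in WT. Its gct-2 arrays also lay above the others, with a log2 change against WT of 0.33 that was not called (adjusted p = 0.169).

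CYP84A4 (AT5G04330), a P450 of the arabidopyrone pathway that branches off phenylpropanoid metabolism, was the 1 P450 outside CYP71B. It was dim, at 3.11, 3.23 and 3.23 in cct-1, at 3.22, 3.04 and 3.46 in gct-2, and at 3.50, 3.54 and 3.55 in WT. All mutant arrays lay below WT, with log2 changes of -0.34 in cct-1 (adjusted p = 0.0819) and -0.29 in gct-2 (adjusted p = 0.106, or 0.0423 without gct-2 replicate 3).

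**Figure D2:**
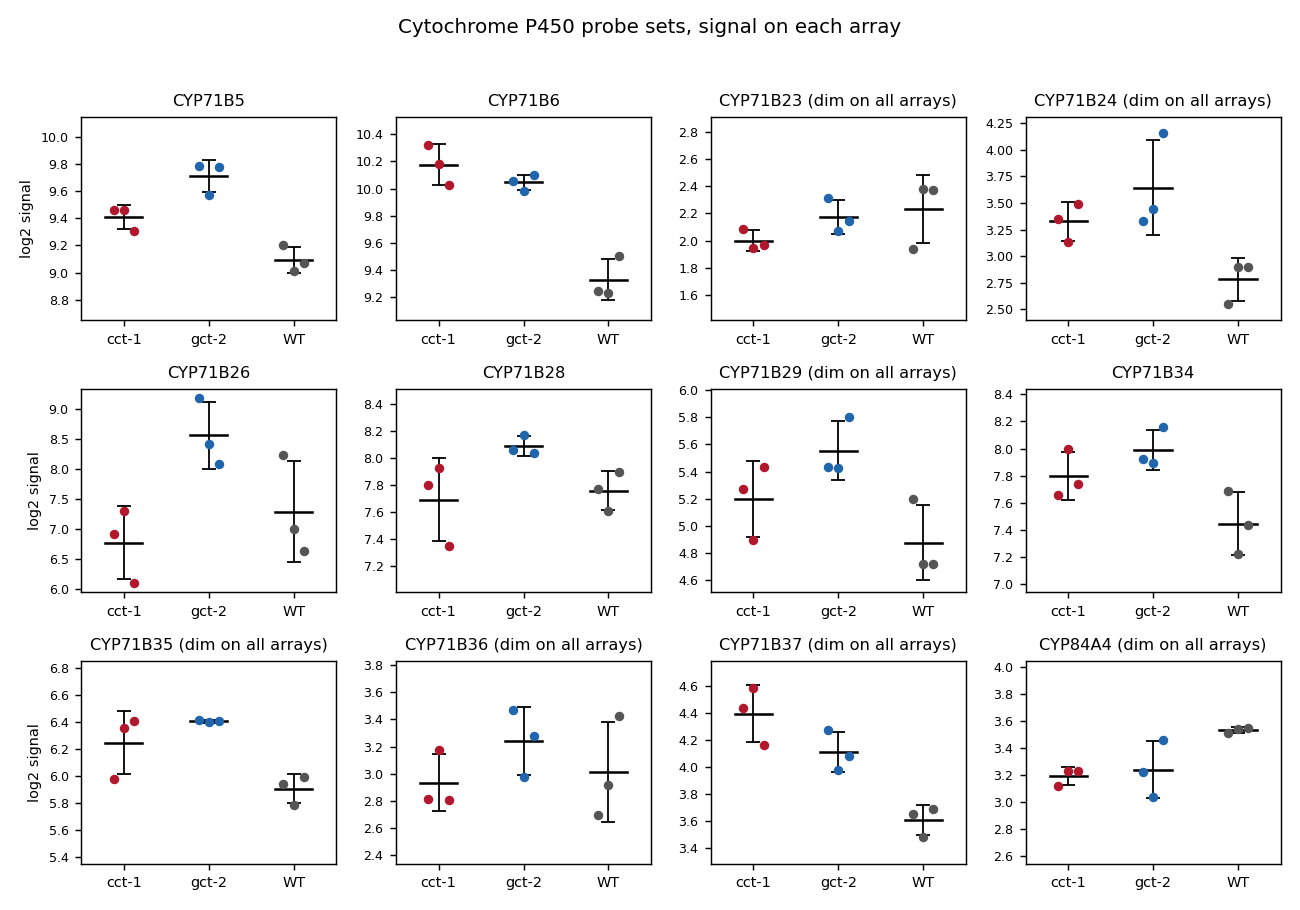
log2 signal (vertical axis, with its own range for each gene) of the 12 P450 probe sets on each array, by genotype. Points are arrays, horizontal lines are means and bars are the SD (n = 3). CYP71B5, CYP71B6, CYP71B24 and CYP71B37 have both mutants wholly above WT, and CYP71B26 has WT values spread from 6.63 to 8.24.

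The cyclophilins are described apart. CYP71 (AT3G44600), a WD40-repeat cyclophilin that binds chromatin and is needed for leaf and meristem development, had log2 signals of 7.67, 7.46 and 7.70 in cct-1, of 7.27, 7.18 and 6.99 in gct-2, and of 7.43, 7.45 and 7.43 in WT. The 3 genotypes did not overlap, with cct-1 above and gct-2 below WT. The change was 0.17 in cct-1 (adjusted p = 0.312) and -0.29 in gct-2 (adjusted p = 0.0836), and CYP71 was higher in cct-1 than in gct-2 (log2 change 0.47, SE 0.10, adjusted p = 0.0409). That call was lost in 12 of 16 alternative fits, among them quantile normalization (0.0535) and 8 of the 9 fits with 1 array left out (every array in turn except gct-2 replicate 1), the highest adjusted p being 0.132, without gct-2 replicate 3. CYP59 (AT1G53720), a cyclophilin with an RNA recognition motif that binds the tail of RNA polymerase II, was measured between 6.70 and 7.37, with overlapping genotypes and no call.

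Among the beta-glucosidases, changes went both ways. In cct-1, 5 of 13 BGLU probe sets were called, BGLU46 higher and BGLU15, BGLU28, BGLU33 and BGLU47 lower. That count fell to 1 without WT replicate 2, to 2 without WT replicate 1 or cct-1 replicate 1, and to 3 without WT replicate 3 or cct-1 replicate 3. In gct-2, 6 of 13 were called, BGLU46 and BGLU25 higher and BGLU15, BGLU28, BGLU40 and BGLU47 lower, a count that was 6 with any 1 array left out. The shares of all probe sets called were 11.7% and 15.7%, as given above. The median log2 change over the 13 was -0.23 in cct-1 and -0.23 in gct-2, beside 0.02 and -0.01 over all probe sets.

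BGLU45, BGLU46 and BGLU47 belong to the branch of the family tied to lignification. BGLU45 and BGLU46 encode enzymes that hydrolyse monolignol glucosides such as coniferin, and the genes are direct neighbours on chromosome 1. BGLU46 (AT1G61820) had log2 signals of 6.34, 7.27 and 6.53 in cct-1, of 6.75, 7.02 and 7.44 in gct-2, and of 5.64, 5.70 and 5.52 in WT. All 6 mutant arrays lay above WT, and the mutants overlapped. It had the largest measured rise of the 39 members in both comparisons, 2.14-fold in cct-1 (log2 change 1.09, SE 0.25, adjusted p = 0.0229) and 2.73-fold in gct-2 (1.45, SE 0.25, adjusted p = 0.00547). WT was dim on all arrays, and 1 of 3 cct-1 and 2 of 3 gct-2 arrays lay above the line, so BGLU46 passed the filter only through the mutants. The cct-1 call was lost without WT replicate 1 (0.0544), 2 (0.0652) or 3 (0.0573).

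BGLU47 (AT4G21760) moved the other way at signals above the line. It measured 9.24, 9.44 and 9.26 in cct-1, 8.97, 9.01 and 8.88 in gct-2, and 9.995, 9.87 and 9.59 in WT on the log2 scale. No genotype overlapped another, with WT on top and gct-2 lowest. BGLU47 fell 1.42-fold in cct-1 (log2 change -0.51, SE 0.12, adjusted p = 0.0249) and 1.82-fold in gct-2 (-0.87, SE 0.12, adjusted p = 0.00195), and the mutants differed by 0.36 (95% interval 0.10 to 0.62, adjusted p = 0.125). Its cct-1 call was lost without WT replicate 1 or 2 or cct-1 replicate 1 or 3 (adjusted p up to 0.0857) and in a fit of the 2 genotypes alone (0.0618). BGLU45 (AT1G61810) was among the dimmest members at 1.68 to 2.25, with changes of -0.25 and -0.31 (adjusted p = 0.171 and 0.0857) in cct-1 and gct-2. Of the 16 phenylpropanoid genes listed beside these families 1 had a probe set with exactly 1 gene. It was the hydroxycinnamoyl transferase gene HCT, which lignin synthesis needs, with changes of 0.14 and -0.07 and no call.

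BGLU15 (AT2G44450) and BGLU28 (AT2G44460) are direct neighbours on chromosome 2. BGLU15 hydrolyses flavonol glycosides, and BGLU28 is known from sulfur deficiency, in which it takes part in glucosinolate breakdown. BGLU15 had log2 signals of 5.74, 5.60 and 5.60 in cct-1, of 5.45, 5.29 and 5.52 in gct-2, and of 6.74, 6.47 and 6.41 in WT. WT lay well above both mutants, and cct-1 lay just above gct-2, though all 9 arrays were under the line for dim signals. BGLU15 fell 1.86-fold in cct-1 (log2 change -0.89, SE 0.11, adjusted p = 0.00181) and 2.17-fold in gct-2 (-1.12, SE 0.11, adjusted p = 0.000392), and both calls stood in all 15 alternative fits that tested it.

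BGLU28 was dimmer still, at 2.71, 2.41 and 2.70 in cct-1, at 2.27, 2.57 and 2.62 in gct-2, and at 3.24, 3.05 and 3.10 in WT. Again all WT arrays were above all mutant arrays, and the mutants overlapped. It fell in cct-1 (log2 change -0.52, SE 0.13, adjusted p = 0.0297) and in gct-2 (-0.64, SE 0.13, adjusted p = 0.0101). The cct-1 call was lost with the replicate number as a block (0.0601), without any 1 of the WT arrays and without cct-1 replicate 1 or 2 (adjusted p up to 0.0923). Of 16 glucosinolate and camalexin genes listed, only the methionine chain-elongation gene BCAT4 and the glucosyltransferase gene UGT74B1 had a named probe set, and neither was called. BCAT4 had a log2 change of -0.34 in cct-1 and of -0.999 in gct-2 (SE 0.42 for both, adjusted p = 0.647 and 0.141).

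BGLU33 (AT2G32860) encodes a vacuolar glucosidase that frees abscisic acid from its glucose ester. Its log2 signals were 7.54, 7.87 and 7.27 in cct-1, 8.03, 7.82 and 8.11 in gct-2, and 8.12, 8.62 and 8.30 in WT. All cct-1 and all gct-2 arrays lay below WT, gct-2 by a narrow margin. BGLU33 fell 1.72-fold in cct-1 (log2 change -0.79, SE 0.18, adjusted p = 0.0227), while the change in gct-2 was -0.36 (95% interval -0.76 to 0.04, adjusted p = 0.2). The call was lost without WT replicate 2 or cct-1 replicate 1 or 3 (adjusted p up to 0.079) and in a fit of the 2 genotypes alone (0.0521), and the mutants differed by -0.43 (adjusted p = 0.212). None of the 10 listed abscisic acid genes had a named probe set.

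BGLU25 (AT3G03640) and BGLU40 (AT1G26560) were called in gct-2 against WT. BGLU25 measured 9.15, 9.52 and 9.50 in cct-1, 9.98, 9.97 and 9.79 in gct-2, and 9.45, 9.05 and 9.12 in WT. The gct-2 arrays stood above all others, and cct-1 and WT overlapped. It rose in gct-2 (log2 change 0.70, SE 0.14, adjusted p = 0.0112), with a change of 0.18 in cct-1 and of -0.52 between the mutants (adjusted p = 0.0728). For BGLU40 the signals were 7.25, 7.26 and 7.19 in cct-1, 6.54, 6.79 and 6.64 in gct-2, and 7.69, 7.09 and 7.34 in WT. The gct-2 arrays were the lowest and lay under the line for dim signals, which the other 6 arrays exceeded.

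BGLU40 fell 1.64-fold in gct-2 (log2 change -0.72, SE 0.14, adjusted p = 0.0114) and differed by -0.14 in cct-1 (adjusted p = 0.576). Between the mutants BGLU40 was at 0.58 (95% interval 0.25 to 0.90, adjusted p = 0.0569). The difference passed after the filter on dim signals (0.0424), in a fit of the mutants alone (0.0349) and without WT replicate 1 (0.0269) or 2 (0.0458). BGLU40 met that filter only through the cct-1 and WT arrays. Both gct-2 calls, of BGLU25 and BGLU40, stood in all 16 alternative fits.

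The other beta-glucosidases had no call. BGLU44 (AT3G18080), which encodes a glucosidase active on beta-mannosides, was the brightest of the family, at 11.45, 11.39 and 11.25 in cct-1, at 11.72, 11.61 and 11.54 in gct-2, and at 11.70, 11.55 and 11.54 in WT. The cct-1 arrays were the lowest, by -0.23 against WT (adjusted p = 0.143). BGLU42 (AT5G36890), known in roots for induced resistance and for the release of coumarins under iron deficiency, lay between 9.86 and 10.21 with full overlap, and its 95% intervals were -0.20 to 0.29 in cct-1 and -0.29 to 0.20 in gct-2. BGLU16 ranged from 8.74 to 9.53, lowest in cct-1 replicate 2. BGLU41 (2.82 to 3.43) and BGLU43 (2.97 to 3.70) were dim on all arrays.

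**Figure D3:**
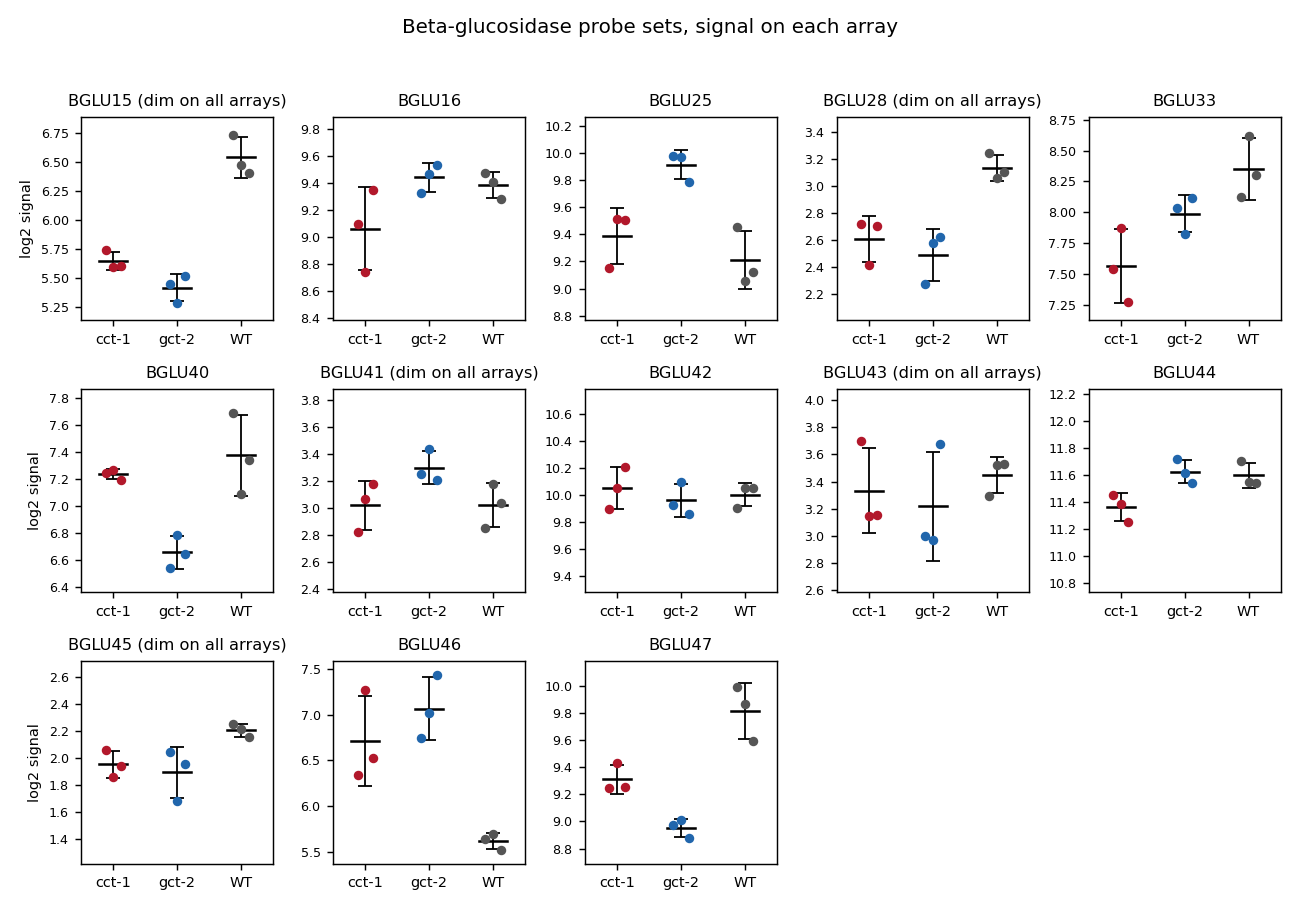
log2 signal (vertical axis, with its own range for each gene) of the 13 BGLU probe sets on each array, by genotype. Points are arrays, horizontal lines are means and bars are the SD (n = 3). BGLU46 has all 6 mutant arrays above WT, BGLU15, BGLU28, BGLU33, BGLU45 and BGLU47 have them below, and BGLU40 is lowest in gct-2.

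Of the 4 SCPL genes 2 were called in each comparison with WT (11.7% of all probe sets in cct-1 and 15.7% in gct-2). SCPL27 (AT3G07990) had log2 signals of 7.45, 7.33 and 7.60 in cct-1, of 7.48, 7.45 and 7.33 in gct-2, and of 6.88, 6.70 and 6.82 in WT. The mutants shared a range above WT. Of the WT arrays 1 of 3 passed the line for dim signals, so SCPL27 met the filter of 3 arrays only through the mutants. SCPL27 rose 1.58-fold in cct-1 (log2 change 0.66, SE 0.10, adjusted p = 0.00382) and 1.54-fold in gct-2 (0.62, SE 0.10, adjusted p = 0.00399), and both calls stood in all 16 alternative fits. The difference between the mutants was 0.04 (95% interval -0.18 to 0.26).

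SCPL34 (AT5G23210) measured 9.71, 10.12 and 10.36 in cct-1, 10.29, 10.41 and 10.68 in gct-2, and 10.75, 10.79 and 10.54 in WT. The cct-1 arrays lay below WT, and gct-2 overlapped both. It fell in cct-1 (log2 change -0.63, SE 0.17, adjusted p = 0.0461) and had a change of -0.23 in gct-2 (adjusted p = 0.392). This was the least steady call against WT: it was lost in 10 of 16 alternative fits, including the replicate number as a block (0.0596) and 8 of the 9 fits with 1 array left out (each array except cct-1 replicate 3), the highest adjusted p being 0.14, without WT replicate 2.

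SCPL49 (AT3G10410), annotated as carboxypeptidase Y, a vacuolar peptidase, had signals of 10.55, 10.61 and 10.55 in cct-1, of 10.79, 10.77 and 10.73 in gct-2, and of 10.34, 10.53 and 10.34 in WT. The genotypes did not overlap, gct-2 being highest and WT lowest. It rose in gct-2 (log2 change 0.36, SE 0.08, adjusted p = 0.0209), a call lost without WT replicate 1 or 3 or any 1 of the gct-2 arrays (adjusted p up to 0.065), and the change in cct-1 was 0.17 (adjusted p = 0.234). SCPL45 (AT1G28110) lay at 10.23, 10.61 and 10.34 in cct-1, at 10.41, 10.15 and 10.41 in gct-2, and at 9.97, 10.03 and 10.17 in WT, with changes of 0.33 and 0.27 that were not called (adjusted p = 0.122 and 0.184).

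All 8 aldehyde dehydrogenase probe sets were above the line on every array, with signals of 7.41 to 11.92. In cct-1, 1 of 8 was called (ALDH11A3, higher). In gct-2, 3 of 8 were called, ALDH11A3 and ALDH6B2 higher and ALDH3F1 lower, beside 11.7% and 15.7% of all probe sets. Changes were small, the largest being -0.51 on the log2 scale.

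ALDH11A3 (AT2G24270) encodes the cytosolic non-phosphorylating glyceraldehyde-3-phosphate dehydrogenase, which yields NADPH. Its log2 signals were 11.82, 11.75 and 11.91 in cct-1, 11.83, 11.92 and 11.89 in gct-2, and 11.46, 11.40 and 11.47 in WT. The mutants shared a range above all WT arrays. ALDH11A3 rose 1.3-fold in cct-1 (log2 change 0.38, SE 0.08, adjusted p = 0.0172, or 0.0661 without WT replicate 2) and 1.35-fold in gct-2 (0.43, SE 0.08, adjusted p = 0.00749).

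ALDH6B2 (AT2G14170), the methylmalonate-semialdehyde dehydrogenase gene of valine breakdown in mitochondria, measured 10.63, 10.69 and 10.94 in cct-1, 10.90, 10.81 and 10.92 in gct-2, and 10.41, 10.46 and 10.52 in WT. All mutant arrays lay above WT. It rose in gct-2 (log2 change 0.41, SE 0.10, adjusted p = 0.0243), a call lost without WT replicate 1 or 2 or any 1 of the gct-2 arrays (adjusted p up to 0.0789). In cct-1 its change was 0.29 (adjusted p = 0.0953, or 0.0436 with an intensity trend and robust variance).

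ALDH3F1 (AT4G36250) was at 9.74, 9.78 and 9.84 in cct-1, at 9.35, 9.25 and 9.26 in gct-2, and at 9.84, 9.69 and 9.85 in WT. The gct-2 arrays stood apart below, and cct-1 lay within the WT range. ALDH3F1 fell 1.42-fold in gct-2 (log2 change -0.51, SE 0.08, adjusted p = 0.00443, called in all 16 alternative fits), and in cct-1 it differed by -0.01 (95% interval -0.20 to 0.17). Between the mutants, which were of equal age, it was higher in cct-1 (log2 change 0.49, SE 0.08, adjusted p = 0.0155), a call lost without cct-1 replicate 2 (0.0512), gct-2 replicate 2 (0.0604) or gct-2 replicate 3 (0.0661).

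ALDH22A1 (AT3G66658) lay at 7.94, 7.69 and 7.96 in cct-1, at 7.78, 7.90 and 7.82 in gct-2, and at 7.41, 7.56 and 7.56 in WT. All mutant arrays were above WT, and the changes of 0.35 and 0.32 missed the threshold (adjusted p = 0.0507 and 0.057), which both passed after the filter on dim signals (0.0375 and 0.0457) and without cct-1 replicate 2 (0.0338 and 0.041). ALDH2C4 (REF1, AT3G24503), which oxidises coniferaldehyde and sinapaldehyde to ferulic and sinapic acid, ranged from 11.10 to 11.35, with 95% intervals of -0.16 to 0.23 in cct-1 and -0.07 to 0.32 in gct-2. The aminoaldehyde dehydrogenase genes ALDH10A8 (11.33 to 11.68) and ALDH10A9 (10.22 to 10.58) had no call. ALDH7B4 (AT1G54100), the stress-induced antiquitin gene, had no call either, with cct-1 replicate 2 at 10.20 and the other 8 arrays between 9.28 and 9.67.

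**Figure D4:**
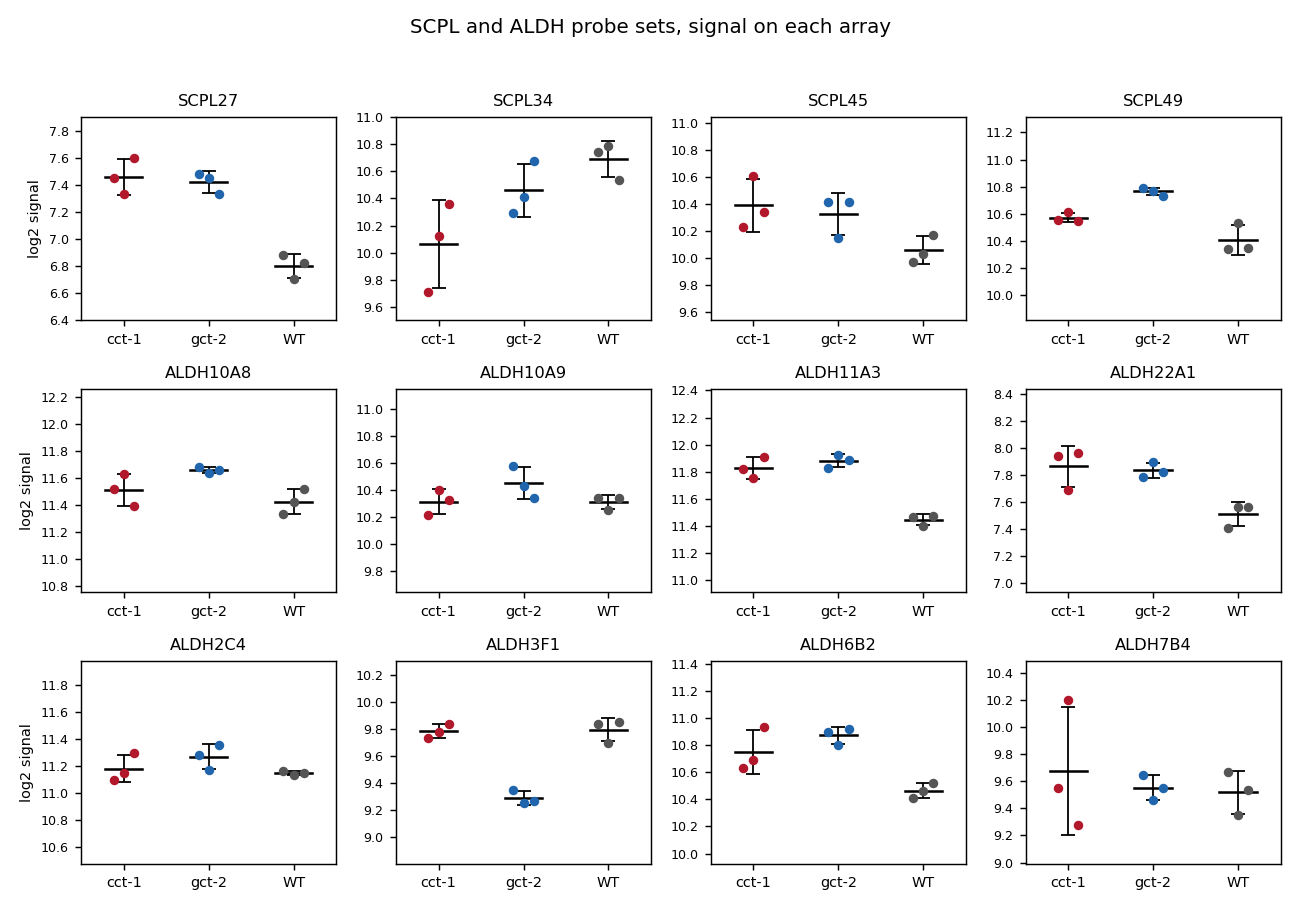
log2 signal (vertical axis, with its own range for each gene) of the 4 SCPL and 8 ALDH probe sets on each array, by genotype. Points are arrays, horizontal lines are means and bars are the SD (n = 3). SCPL27 and ALDH11A3 have both mutants wholly above WT, and ALDH3F1 is lowest in gct-2.

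Set against each other at the same age of 9 days, the mutants differed in 2 of the 39 members, ALDH3F1 and the cyclophilin gene CYP71, both higher in cct-1. Of all probe sets 4.59% were called in this comparison, 2.45% higher and 2.13% lower in cct-1, and 6.39% after the filter on dim signals. Of the 12 P450s, 13 BGLU and 4 SCPL probe sets 0 were called with limma, and 3, 6 and 2 of them had an unadjusted p under 0.05, as did 20.7% of all probe sets (3486). The P450 differences ran from -1.79 to 0.28, with 10 of 12 below 0 and a median of -0.25, beside 0.02 over all probe sets. For the BGLU genes they ran from -0.52 to 0.58.

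Counted by arrays alone, the 3 gct-2 arrays lay wholly above or below the 3 WT arrays for 27 of the 39 members (18 higher and 9 lower), where this held for 37.0% of all probe sets (18.3% higher and 18.8% lower). For cct-1 against WT it held for 20 members (12 higher and 8 lower), beside 31.8% of all probe sets (16.5% higher and 15.3% lower). For cct-1 against gct-2 it held for 13 members (5 higher and 8 lower), beside 25.7% of all probe sets (13.8% higher and 11.9% lower). Those higher in gct-2 than in WT included 8 of the 12 P450s, and those lower included 6 of the 13 BGLU genes.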

How the data were processed

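RNA from 9 seedling pools was amplified from 50 ng and hybridised to Affymetrix arrays, 1 per pool, per the labels' protocols. The deposited values are log2 probe set expression values, and their log2 scale was read from their range and nearly equal medians. GCRMA and MAS5 are named per the submitters' processing notes, with no role or version, and further steps are not given in the sources used here. How dim values were corrected for background is therefore unknown.

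The values were used as deposited. Of 16863 probe sets 37 controls were left out. Genes came from the platform annotation: 9335 probe sets had 1 gene, 351 several and 7140 none there. All 39 members matched the RefSeq gene table (assembly TAIR10.1), which gave loci and gene order. A linear model with 1 coefficient for each genotype was fitted to all 9 arrays in R 4.3.3 with limma 3.58.1 (lmFit, eBayes) and no filter. The p-values were adjusted by Benjamini-Hochberg over 16826 probe sets. The code was also run on simulated data with independent noise on each array, a check of the code and not of the results. Genes described in full were those called whose arrays did not overlap, up to 8 each way for P450s and 4 for the other families (4 and 2 between mutants), and others by role. Members and lists were chosen with earlier results of these data known. By probe sets with exactly 1 gene, the brassinosteroid, cuticle, jasmonate and abscisic acid lists covered 0 genes outside the families. The gibberellin list covered 3 of 12 (1 called, GID1A, higher in gct-2 by 0.42). Listed genes without such a probe set were not shown to be absent from the array.

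Samples sharing a replicate number did not deviate together (r from -0.28 to 0.10 over 9 such pairs), so the numbers did not pair samples. Over the 18 pairs with other numbers r ran from -0.11 to 0.29. The highest were cct-1 replicate 1 with gct-2 replicate 2 (0.29) and cct-1 replicate 2 with gct-2 replicate 1 (0.27). For WT the best pairs were replicate 1 with cct-1 replicate 2 (0.17), replicate 2 with cct-1 replicate 3 (0.16) and replicate 3 with cct-1 replicate 1 (0.15). No fit with a block by such pairs was run. The cause of these was not tested. Alternatives were the 40th percentile filter (3 arrays), centring on array medians, quantile normalization, robust variance with an intensity trend, a replicate number block, dropping probe sets that end in _s_at or _x_at, fits of 2 genotypes alone and leaving out each array. Counting without the 2 cyclophilins was chosen after the annotation was read.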

Additional observations from a re-analysis of the deposited data

Results flagged for a closer look

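The effect of the mutations against WT differed between cct-1 and gct-2, by the test of that difference itself, for 2 of 39 members, a share (5.13%) near the 4.59% called over all probe sets. ALDH3F1 was 0.49 higher in cct-1 than in gct-2 on the log2 scale (limma adjusted p = 0.0155), with all 3 cct-1 arrays above all 3 gct-2 arrays, and the call was lost in 3 of 16 alternative fits. CYP71, a cyclophilin taken in by its symbol, was 0.47 higher in cct-1 (adjusted p = 0.0409), with every cct-1 array above WT and every gct-2 array below it, and its call was lost in 12 of 16 alternative fits (adjusted p = 0.0842 with the replicate number as a block).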

How the results depend on the processing

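Of the 30 called changes described above, none changed sign under any alternative. Of them, 15 stayed called in every alternative that tested them and 15 lost their call at least once. Among the calls kept, those of CYP71B37 in cct-1, BGLU28 in gct-2 and BGLU15 in both were not tested after the filter on dim signals. SCPL27 in both mutants, and BGLU46 and BGLU40 in gct-2, passed that filter only through the genotypes where they were higher. Of the 87 changes not called, 21 changed sign and 11 were called at least once. The filter on dim signals was passed by 5 of the 12 P450s, 8 of the 13 BGLU, 4 SCPL and 8 ALDH probe sets. The number then called was 1 P450, 3 BGLU and 2 ALDH in cct-1, 3 P450 in gct-2, and 1 BGLU between the mutants. These include BGLU46 in cct-1, which passed the filter only through the mutants. They also include BGLU40 between the mutants, which passed only through cct-1 and WT. Keeping such calls after the filter is tied to the difference tested. With the 2 genotypes fitted alone the number called was 3 BGLU and 1 SCPL in cct-1, and 0 CYP and 1 BGLU between the mutants. An intensity trend with robust variance gave 2 ALDH in cct-1, and 0 CYP and 1 BGLU between the mutants, quantile normalization 0 CYP between the mutants, and counting without the cyclophilins 0. With the replicate number as a block 1 SCPL was called in cct-1, and in gct-2 6 P450, 6 BGLU, 2 SCPL and 3 ALDH. The block removed the calls of BGLU28 and SCPL34 in cct-1, of CYP71B34 and CYP71B37 in gct-2, and of CYP71 between the mutants, and no other call, and it added CYP71B26 in gct-2 against WT and between the mutants. The replicates share only a number, and every array except gct-2 replicate 3 correlated best with an array of another number. The other counts lay within 1.5 times of those given above.

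With 1 array left out, calls in cct-1 were 2 to 3 for P450, 1 to 5 for BGLU, 1 to 2 for SCPL and 0 to 2 for ALDH. In gct-2 they were 2 to 7, 6 to 6, 1 to 2 and 2 to 4, and between the mutants 0 to 1, 0 to 1, 0 to 0 and 0 to 1. The lowest counts in cct-1 for BGLU (1) and ALDH (0), and in gct-2 for P450 (2), came without WT replicate 2. The cause was not tested. Over all probe sets, calls with all arrays were 1976 for cct-1, 2640 for gct-2 and 772 for the mutants against each other. Without WT replicate 2 they were 1050, 1553 and 453, after the filter 1344, 1586 and 664, and with the block 1496, 2167 and 430. Without gct-2 replicate 3 the last was 207. Signal over background limits the 12 members dim on all arrays, for which the size of a change is uncertain.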

Other observations

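A probe set annotated to 2 CYP71B genes at once was outside the members. It averaged 9.38 ± 0.24 in cct-1, 10.13 ± 0.12 in gct-2 and 9.51 ± 0.34 in WT on the log2 scale (SD, n = 3 each). It rose in gct-2 by 0.62 (SE 0.18, limma adjusted p = 0.0475), with a change of -0.12 in cct-1 (adjusted p = 0.703) and of -0.75 between cct-1 and gct-2 (adjusted p = 0.0521).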
